A study of Mus musculus with 9 samples.

Results

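The cells described here are tomato-positive cells sorted from intact tibial periosteum, the connective tissue sheath of the shin bone. They come from the 3 pools that the labels call unfractured, out of 9 pools in the series, and were chosen by that label alone. Within them, genes were ranked by their mean normalised intensity if their probe was detected in all 3 pools, which held for 6751 of the 16593 genes with a named probe (40.7%). All 9 pools came from αSMACreERT2/Ai9 mice on a B6;129S6 background that had received tamoxifen, 75 µg per g, in 2 doses. The unfractured pools were collected 2 days after tamoxifen. Pool 1 held cells of 9 males aged 4 months, pool 2 cells of 8 females aged 4 to 5 months and pool 3 cells of 9 males aged 4.5 to 5.5 months. The other 6 pools were collected 2 days after a tibial fracture (3 pools of 7 to 8 animals, aged 2 to 5.5 months) and 6 days after it, from periosteum and soft callus (3 pools of 4 to 8 animals, aged 3 to 5.5 months), with 2 male pools and 1 female pool in each group. Tamoxifen preceded fracture, and no unfractured pool was collected at the later time.

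Cre recombinase is made in these mice under the Acta2 promoter, the one of alpha smooth muscle actin, and enters the nucleus after tamoxifen. The Ai9 reporter then marks the recombined cell and all its descendants with the red protein tomato, so the mark shows that a cell once used this promoter and not that it still does. Alpha smooth muscle actin is made by smooth muscle cells and pericytes around vessels and by contractile fibroblasts, and cells marked in this way in the periosteum are known to include progenitors of bone and cartilage. Periosteum also holds fibroblasts, bone-lining cells, endothelium, nerves and blood cells, and it borders bone on one side and muscle on the other. Marker genes of all these cell types were therefore examined. Each pool is a bulk sample, in which fewer cells of a type and less RNA per cell cannot be told apart.

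The regulatory sequence of Acta2 decides which cells carry the mark, so its promoter is shown here beside those of Tpm1, a tropomyosin of contractile filaments that was abundant in these cells, and Cnn1, the smooth muscle calponin that was scarcely detected. The windows run from 250 bases before to 50 bases after the start of each gene in RefSeq (build GRCm38.p6), 5′ to 3′ on the strand of the gene. They lie at chr19:34255324-34255623 (minus strand), chr9:67049164-67049463 (minus strand) and chr9:22099003-22099302 (plus strand). Capitals mark matches, with at most 1 mismatch, to the CArG box, the 10-letter element bound by serum response factor, a transcription factor of contractile and immediate early genes. The box reads alike on both strands, so a match covers both. The genomic extent of the promoter in the transgene is not given in the sources used here.
Acta2: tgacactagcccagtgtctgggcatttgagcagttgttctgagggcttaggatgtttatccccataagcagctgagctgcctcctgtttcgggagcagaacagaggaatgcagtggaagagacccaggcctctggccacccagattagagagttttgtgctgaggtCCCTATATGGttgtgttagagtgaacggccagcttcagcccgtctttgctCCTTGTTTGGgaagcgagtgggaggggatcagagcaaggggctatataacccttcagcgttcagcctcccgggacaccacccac
Tpm1: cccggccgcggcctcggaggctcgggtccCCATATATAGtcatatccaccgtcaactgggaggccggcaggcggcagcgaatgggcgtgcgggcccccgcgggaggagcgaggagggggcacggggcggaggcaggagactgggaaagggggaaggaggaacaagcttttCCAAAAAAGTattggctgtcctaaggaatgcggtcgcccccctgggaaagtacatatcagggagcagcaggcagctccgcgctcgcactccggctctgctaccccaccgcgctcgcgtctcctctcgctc
Cnn1: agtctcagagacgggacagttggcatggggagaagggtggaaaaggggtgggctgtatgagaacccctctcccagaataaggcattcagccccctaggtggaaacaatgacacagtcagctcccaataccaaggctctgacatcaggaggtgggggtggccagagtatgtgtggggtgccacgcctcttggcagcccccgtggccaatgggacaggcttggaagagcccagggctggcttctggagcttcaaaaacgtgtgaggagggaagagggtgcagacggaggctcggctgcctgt

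The Acta2 window held 2 such matches, CCCTATATGG beginning 84 bases and CCTTGTTTGG beginning 34 bases before the start. The Tpm1 window held 2, CCATATATAG beginning 221 bases and CCAAAAAAGT beginning 80 bases before the start, and the Cnn1 window held none. A match with at most 1 mismatch was present in 7 of 16 windows of the 14 listed smooth muscle genes that RefSeq windows covered, against 21.1% of all 32851 windows, and 2 or more matches were present in 3.70% of all windows. The Mylk window also held none, although Mylk, described below, had rank 242, so matches did not follow abundance throughout. A match is a description of letters and not a bound site.

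Intensity was read with bead arrays carrying 25697 probes, 1 array per pool. A probe counts as detected on an array at a detection p under 0.05. This p is the share of negative controls whose signal reaches that of the probe. In the unfractured pools 10387, 11926 and 13037 probes were detected (40.4%, 46.4% and 50.7%), a mean of 11783 ± 1331 (SD, n = 3) against 13701 ± 457 (SD, n = 6) in the fractured pools (exact permutation test over arrays, two-sided, p = 0.0238, where 0.0119 is the smallest possible). The difference kept its direction without pool 1 (exact p = 0.0714) or without pool 2 (exact p = 0.0714), although neither p passed 0.05. Without the 3 leukocyte-rich arrays named below it was -2654 probes, unfractured minus fractured (exact p = 0.0667). That is the smallest p possible with so few arrays, so this setting could not pass 0.05. Levels are given as background-corrected, quantile-normalised log2 intensity, on which 1 unit is a 2-fold difference. The lowest level at which a probe was detected was 6.66, 6.05 and 5.73 in the 3 unfractured pools. Probes differ in how strongly they bind their target, so a rank orders probe signals and does not count transcripts. Among genes detected in all 3 pools the median level was 9.65, and the SD over pools had a median of 0.41. Just inside the detection rule were Tspan18, Minpp1 and Tars, with a largest detection p of 0.0489, and just outside it were 6430571L13Rik, BC052040 and Hspbp1, with 0.0501.

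The 3 pools were not alike, and pool 3 stood apart. Across 10073 genes pools 1 and 2 correlated at 0.939, pools 1 and 3 at 0.854 and pools 2 and 3 at 0.895. Pool 3 correlated at 0.933, 0.932 and 0.929 with day 2 replicates 1, 2 and 3. With day 6 replicates 1, 2 and 3 it correlated at 0.938, 0.905 and 0.903. Pool 2 correlated at 0.946 with day 2 replicate 2, so closeness to a fractured pool was not particular to pool 3. The 3 arrays of unfractured pool 3, day 2 replicate 1 and day 6 replicate 1 had the highest macrophage signal of their groups. They are called leukocyte-rich below. Of 9491 genes detected in at least 1 unfractured pool, 1536 (16.2%) ranged over more than 4-fold between pools. In 415 of these pool 3 was the highest and apart from the others and in 448 it was the lowest, against 204 and 302 for pool 1 and 88 and 79 for pool 2. Of the 6751 genes detected in all 3 pools, 2407 were highest in pool 1, 1739 in pool 2 and 2605 in pool 3. The sex labels fitted the arrays: Xist, the RNA that silences an X chromosome in females, had 4.99, 9.98 and 5.59 in pools 1, 2 and 3, and Eif2s3y, a Y-linked gene, had 10.61, 5.10 and 10.31.

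Acta2, the gene that defines the label, was among the most abundant transcripts of the unfractured pools. Its log2 intensity was 16.07 in pool 1, 16.09 in pool 2 and 15.57 in pool 3, which gave it rank 4 among detected genes. It was lower in pool 3, by more than pools 1 and 2 differed. Without pool 3 its rank was 1, and leaving out pool 1 or pool 2 gave rank 7 and rank 9.

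The other genes above and just below it were components that nearly every cell uses. Rank 1 was Rpl41, a ribosomal protein, with a mean of 16.002 ± 0.11 (SD, n = 3). Fth1, the iron-storing ferritin heavy chain, followed with 15.97 ± 0.03, then Actb, cytoplasmic beta actin, with 15.94 ± 0.04. Neighbours in this order differed by less than the spread between pools. Hspa8, a constitutive heat shock protein, had rank 5, and Mt1, a metal-binding metallothionein, had rank 10. Of the 100 highest genes, 28 were ribosomal proteins.

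Genes of the extracellular matrix were among the abundant transcripts with a specialised function. Dcn, decorin, a small proteoglycan that binds collagen fibrils, had 16.02, 15.90 and 15.67 in pools 1, 2 and 3 (rank 7). Bgn, biglycan, its close relative, had 15.48, 15.65 and 15.46 (rank 22). Their SDs over the pools were 0.18 and 0.10. Both lie near the top of the intensity scale, so these SDs were not read as steadiness. Of 11 small leucine-rich proteoglycans on the array 9 were detected in all 3 pools (81.8%) and 3 were among the 100 highest genes, including Prelp, which anchors basement membranes to collagen, with 15.09, 15.08 and 13.56. Lum and Ogn, which also regulate fibrils, had ranks of 197 and 144. Igfbp7, a secreted binding protein of insulin-like growth factors, had 15.78, 15.55 and 15.56 (rank 17), and Mgp, matrix Gla protein, an inhibitor of calcification, had 15.53, 15.41 and 15.15 (rank 29). Serpinf1, the secreted factor PEDF, had rank 24.

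Collagens were detected almost without exception. Of 13 fibrillar and associated collagens on the array 12 were detected in all 3 pools (92.3%), and Col13a1, a transmembrane collagen, was detected in none. Col1a1, the main chain of bone and tendon collagen, had 14.79, 14.44 and 15.41 in pools 1, 2 and 3 (rank 56). Col6a1 had 14.58, 14.92 and 14.97 (rank 59), and Col3a1, a collagen of loose connective tissue, had 13.64, 13.17 and 14.35 (rank 194). All of these were highest in pool 3, as were 8 of the 13 listed collagens, whereas 2605 of the 6751 detected genes were highest there. Of the vascular basement membrane, Col4a1 had 14.52, 14.57 and 14.39 (rank 81). Periostin, Postn, a matrix protein named for the periosteum, was not detected in any unfractured pool, with 4.53, 5.37 and 4.89. The same probe had 5.12, 4.81 and 5.08 in the day 2 pools and 6.75, 8.05 and 7.70 in the day 6 pools.

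**Figure D1:**
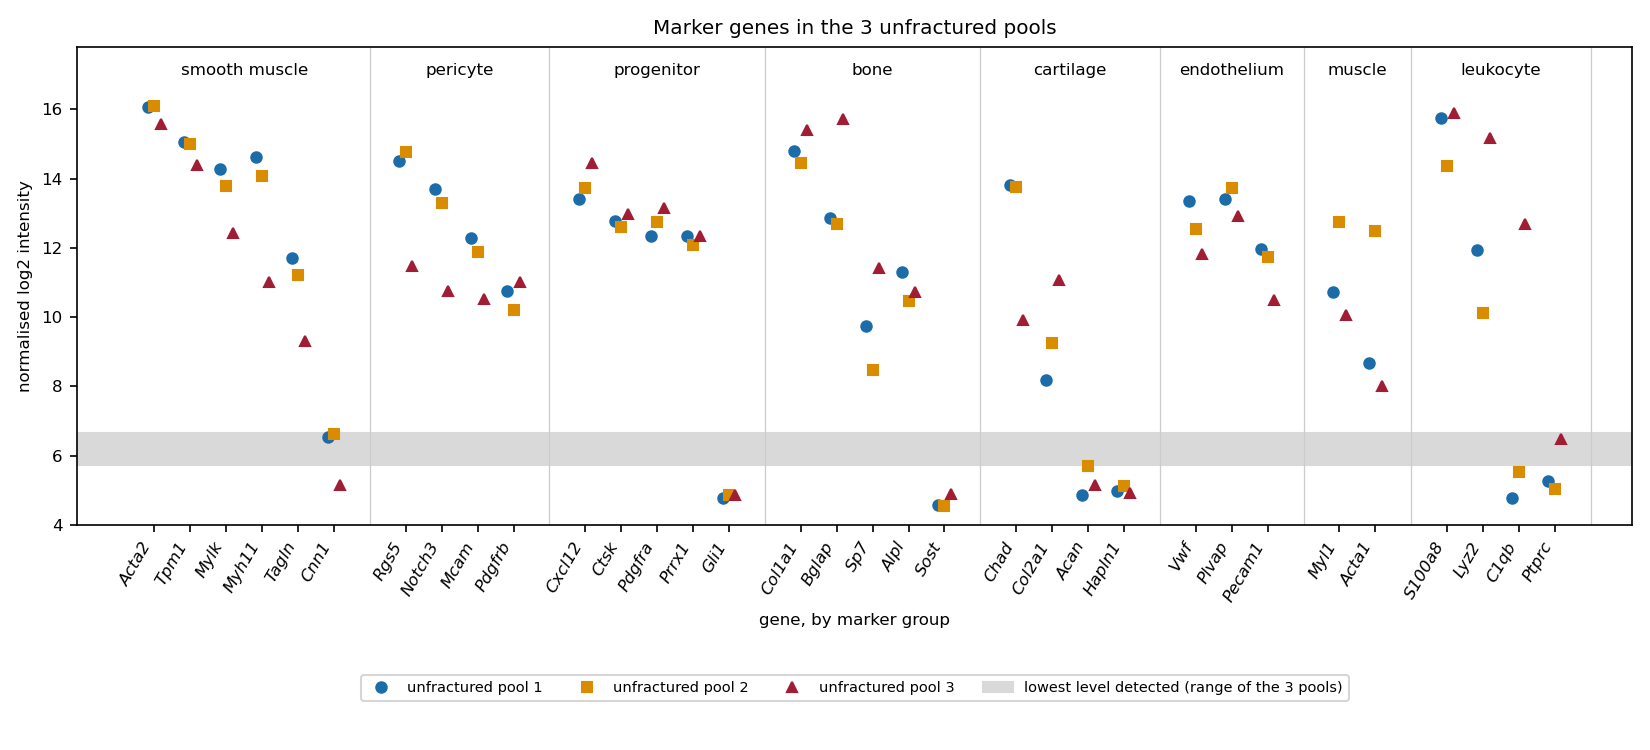
Normalised log2 intensity (vertical axis) of marker genes, grouped by cell type, in unfractured pool 1 (circles), pool 2 (squares) and pool 3 (triangles). The grey band spans the lowest level detected in the 3 pools, 5.73 to 6.66. Acta2 lies near 16 in all 3 pools, smooth muscle and pericyte genes are mostly lowest in pool 3, and Bglap, Lyz2 and C1qb are highest there.

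Contractile genes accompanied Acta2. Of 17 smooth muscle genes on the array, 16 were detected in all 3 pools (94.1%, against 40.7% of all genes). Tpm1 had 15.05, 14.99 and 14.41 in pools 1, 2 and 3 (rank 60), and Mylk, the kinase that activates smooth muscle myosin, had 14.27, 13.80 and 12.42 (rank 242). Myh11, smooth muscle myosin heavy chain and the marker most restricted to mature smooth muscle, had 14.64, 14.07 and 11.001 (rank 300). Acta2 lies at the top of the intensity scale, so its spread was not set against that of Myh11. Tagln, transgelin, an actin-binding protein that is usually abundant in smooth muscle, had 11.70, 11.23 and 9.30 (rank 1932). Myocd, the coactivator of serum response factor that drives the smooth muscle programme, was detected in all 3 pools with rank 2254. Only Cnn1 missed the rule, with 6.53, 6.64 and 5.15, and it passed the detection threshold in pool 2 alone. The mean over the 17 genes was 12.26, 11.74 and 10.28 in the 3 pools: 15 of the genes were highest in pool 1 and none in pool 3.

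Pericyte genes followed the same order of pools. Of 15 on the array 12 were detected in all 3 pools (80.0%), with list means of 9.75, 9.62 and 8.23. Rgs5, a regulator of G protein signalling used as a pericyte marker, had 14.51, 14.76 and 11.46 (rank 227), and Notch3, the Notch receptor of mural cells, had 13.70, 13.30 and 10.74 (rank 532). Pdgfrb, the receptor through which vessels recruit pericytes, differed from these, with 10.76, 10.21 and 11.01 (rank 2035) and no loss in pool 3. Cspg4, the proteoglycan NG2, had 9.37, 8.87 and 8.39, and Mcam, the adhesion molecule CD146, had 12.27, 11.87 and 10.52.

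Genes of mesenchymal progenitors were more even. Of 22 on the array 18 were detected in all 3 pools (81.8%), with list means of 10.13, 10.26 and 9.90. Cxcl12, the chemokine that retains blood stem cells in marrow, had 13.40, 13.73 and 14.45 in pools 1, 2 and 3 (rank 162). Pdgfra, a growth factor receptor of fibroblasts and skeletal progenitors, had 12.34, 12.74 and 13.16 (rank 472), and Prrx1, a limb mesenchyme transcription factor, had 12.34, 12.09 and 12.34 (rank 688). None of these was lower in pool 3 than in pool 2. Vcam1, an adhesion molecule, was lower there, with 12.77, 13.39 and 12.72 (rank 388), as was the list mean. Ctsk, cathepsin K, a protease of osteoclasts that also marks periosteal stem cells, had rank 455. Gli1, a hedgehog target used to mark skeletal stem cells, was detected on none of the 9 arrays, and Lepr, the leptin receptor of marrow stroma, passed the threshold in 1 unfractured pool. A probe that is silent on all 9 arrays was not shown to work here, which limits what its silence can say.

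Bone genes were present, and unevenly so. Of 15 osteoblast genes on the array 11 were detected in all 3 pools (73.3%), and 13 of the 15 were highest in pool 3, where the list mean was 10.87 against 9.49 in pool 1 and 9.32 in pool 2. Bglap, osteocalcin, a hormone and matrix protein of mature osteoblasts, had 12.87, 12.70 and 15.73 (rank 182). Sp7, osterix, the transcription factor that commits cells to bone, had 9.73, 8.48 and 11.43 (rank 3062), and Alpl, the alkaline phosphatase that starts mineralisation, had 11.31, 10.46 and 10.72 (rank 1822). Alpl was thus highest in pool 1, unlike Bglap and Sp7. The homeobox genes Dlx5 and Msx2 were detected in no unfractured pool. Msx2 was also detected in no fractured pool and Dlx5 in only 1, which limits what their silence can say. Of 7 osteocyte genes 2 were detected in all 3 pools; Sost, sclerostin, the Wnt inhibitor of mature osteocytes, had 4.59, 4.55 and 4.88 and was detected on none of the 9 arrays.

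Cartilage genes were the group most often absent among the skeletal lineages. Of 22 chondrocyte genes on the array 5 were detected in all 3 pools (22.7%) and 14 in none (37.4% of all genes were detected in none). Of these 14, 9 were detected in at least 3 of the fractured pools, so their probes did give signal elsewhere in the series. Acan, aggrecan, the large proteoglycan of cartilage, had 4.86, 5.70 and 5.14 in the unfractured pools, against 9.59, 9.28 and 7.52 in the day 2 pools and 14.84, 14.92 and 15.09 in the day 6 pools. Hapln1, which links aggrecan to hyaluronan, had 4.96, 5.12 and 4.93 in the unfractured pools. Other listed cartilage genes were present. Chad, chondroadherin, a leucine-rich matrix protein, had 13.82, 13.74 and 9.90 (rank 569), and Comp, a pentameric protein of cartilage and tendon, had 11.61, 10.77 and 9.21 (rank 2189). Col2a1, the main cartilage collagen, had 8.19, 9.24 and 11.06 (rank 3597). Sox9, the transcription factor that commits cells to cartilage, was detected in pools 2 and 3, with 6.07, 8.36 and 7.77.

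Tendon and fat genes were mixed. Of 10 tendon genes on the array 7 were detected in all 3 pools (70.0%), among them Scx, scleraxis, the tendon transcription factor, with 9.99, 9.21 and 6.21 (rank 4989), and Fmod, fibromodulin, with 13.38, 12.93 and 9.22 (rank 953). Tnmd, tenomodulin, a marker of mature tendon cells, was detected in none, with 6.14, 5.29 and 4.65. Of 12 adipocyte genes 4 were detected in all 3 pools (33.3%, against 40.7% of all genes). Pparg, the transcription factor that directs fat cell formation, was even over the pools, with 9.55, 9.64 and 9.50 (rank 3498), while Adipoq, the fat cell hormone adiponectin, had 6.43, 5.42 and 10.52 and was detected in pool 3 alone. Lpl, lipoprotein lipase, had rank 268.

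**Figure D2:**
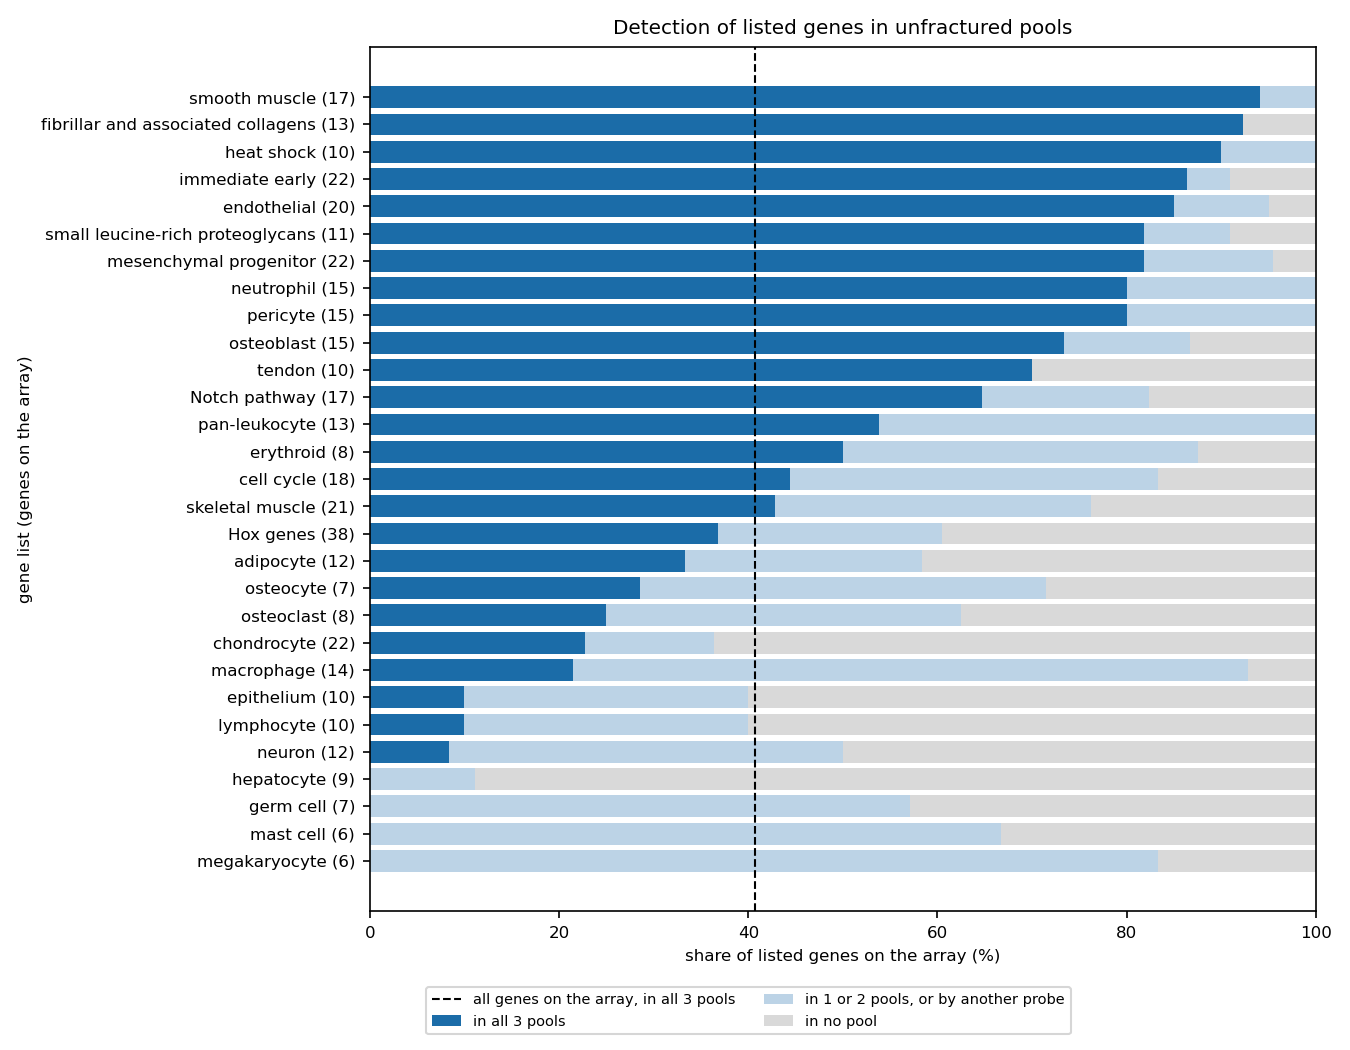
Share of the listed genes on the array (horizontal axis, percent) that was detected in all 3 unfractured pools (dark blue), in some pools or by another probe (light blue) and in no pool (grey), with the number of genes on the array in brackets. The dashed line marks the 40.7% of all genes detected in all 3 pools; smooth muscle genes lie highest at 94.1% and chondrocyte genes at 22.7%.

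Genes of cells that should not carry the mark were also detected. Of 20 endothelial genes on the array 17 were detected in all 3 pools (85.0%), with list means of 10.86, 10.59 and 9.68 in pools 1, 2 and 3. Plvap, a protein of endothelial pores, had 13.42, 13.71 and 12.93 (rank 269), Vwf, the clotting factor stored in endothelium, had 13.35, 12.55 and 11.81 (rank 538), and Pecam1, the endothelial junction protein CD31, had 11.96, 11.74 and 10.48 (rank 1289). Erg, an endothelial transcription factor, was not detected. Whether these transcripts came from labelled cells or from other cells in the sort was not tested.

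Macrophage and other leukocyte genes differed widely between the pools. S100a8, a calcium-binding protein stored in neutrophils, had 15.75, 14.35 and 15.90 in pools 1, 2 and 3 (rank 31), and 12 of 15 neutrophil genes were detected in all 3 pools (80.0%), with list means of 11.58, 9.82 and 11.56. Of 14 macrophage genes 3 were detected in all 3 pools, and all 14 were highest in pool 3, where the list mean was 10.40 against 6.44 in pool 1 and 6.24 in pool 2. C1qb encodes part of the complement complex C1q, a macrophage product; it had 4.78, 5.54 and 12.67 and was detected in pool 3 alone, and Lyz2, lysozyme of macrophages and neutrophils, had 11.94, 10.13 and 15.19. Adgre1, the macrophage marker F4/80, had 5.04, 6.31 and 11.60. Ptprc, the pan-leukocyte protein CD45, had 5.26, 5.03 and 6.49 and was detected in pool 3 alone. Hba-a1, alpha globin of red cells, had 15.20, 12.76 and 13.87 (rank 143). Lymphocyte genes were nearly absent: of 10 on the array 1 was detected in all 3 pools, Ebf1, which fibroblast lineages also express, and Cd79a, Cd79b, Cd3e and Cd3d were detected in none.

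Skeletal muscle genes marked pool 2. Of 21 on the array 9 were detected in all 3 pools (42.9%, near the 40.7% of all genes). Of the 21, 18 were highest in pool 2, whereas 1739 of the 6751 detected genes were highest there. List means were 6.73, 8.50 and 6.20 in pools 1, 2 and 3. Acta1, skeletal muscle actin, had 8.69, 12.49 and 8.02 in pools 1, 2 and 3, and Myl1, a myosin light chain of fast fibres, had 10.72, 12.76 and 10.05. Pax7, which marks muscle stem cells, was not detected. Lists of distant cell types gave low shares: 0 of 9 hepatocyte genes and 0 of 7 germ cell genes were detected in all 3 pools, and 1 of 12 neuron genes and 1 of 10 epithelial genes. The megakaryocyte and mast cell lists, of 6 genes each, were also at 0. Alb, serum albumin, had 4.69, 5.45 and 5.04.

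**Figure D3:**
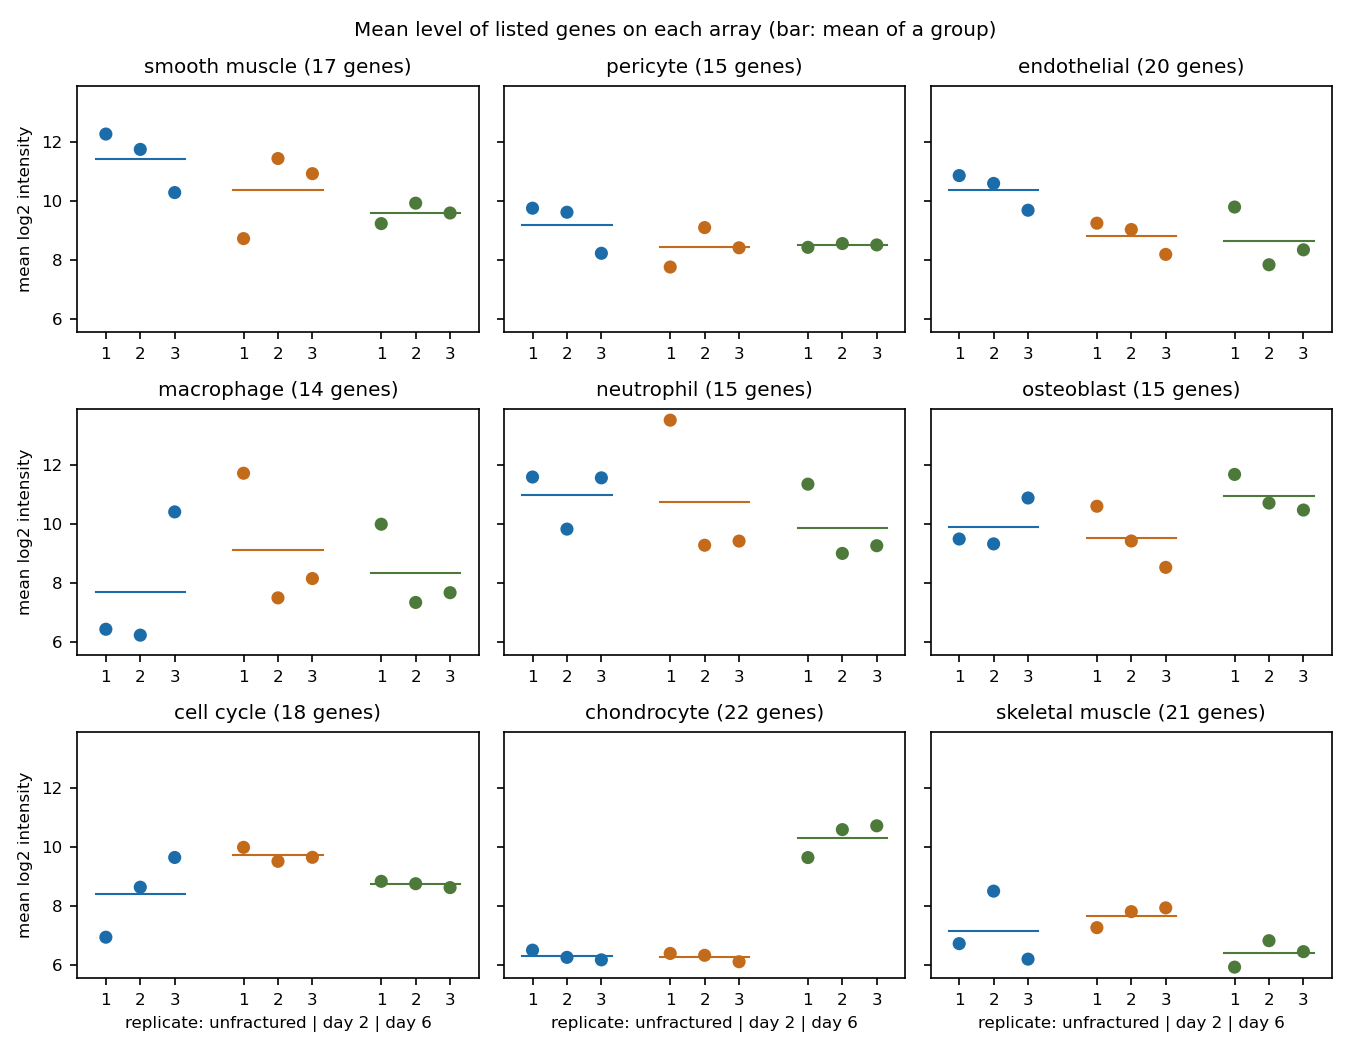
Mean log2 intensity (vertical axis) of the listed genes on each of the 9 arrays, with unfractured pools (blue) left, day 2 (orange) in the middle and day 6 (green) right, numbered by replicate; bars are group means. Unfractured pool 3 has the lowest smooth muscle mean (10.28) and the highest macrophage mean (10.40) of the unfractured pools, and pool 1 has the lowest cell cycle mean (6.94).

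Immediate early genes, which are switched on within minutes of a stimulus such as serum, injury or tissue digestion, were among the strongest signals. Of 22 on the array 19 were detected in all 3 pools (86.4%) and 10 were among the 100 highest genes. Egr1, a zinc finger transcription factor, averaged 15.69 ± 0.32 (SD, n = 3), highest in pool 1 and lowest in pool 3, with 15.71 in pool 2 and 15.36 in pool 3 (rank 14), and Fos, a subunit of the transcription factor AP-1, had 15.83, 15.57 and 15.59 (rank 15). Zfp36, which destabilises cytokine mRNAs, had 15.56, 15.25 and 14.78 (rank 37), and Fosb, a relative of Fos, had 15.67, 15.15 and 13.72 (rank 57). Of the 22 genes 18 were highest in pool 1, where the list mean was 12.86 against 12.47 in pool 2 and 11.51 in pool 3. The fractured pools had means of 11.18 to 12.05, and none of the 20 members tested passed the limma test between unfractured and fractured pools (at an unadjusted p under 0.05, 4 were higher and none lower, against 9.42% and 12% of all genes). The list median was 0.53, and -0.14 with median scaling, where that of all genes was -0.79. Without the leukocyte-rich arrays, which had the lowest list mean of each group, 9 of the 20 passed as higher, against 15.3% of all genes. Tissue was digested with enzymes for all groups before sorting, and its part in these levels was not tested. Nr4a1 and Btg2, which also belong to the early response, were not detected in any unfractured pool.

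Chemokine and cytokine transcripts were widespread. Of 23 on the array 16 were detected in all 3 pools (69.6%). Cxcl1, which attracts neutrophils, had 15.41, 15.75 and 14.33 in pools 1, 2 and 3 (rank 39). Il6, interleukin 6, had 13.87, 14.06 and 11.49 (rank 333), and Ccl7, which attracts monocytes, had 11.19, 12.88 and 12.68 (rank 691). Il6 was lowest in pool 3 although the macrophage genes were highest there. Socs3, the feedback inhibitor of interleukin 6 signalling, had 15.22, 15.01 and 14.70 (rank 50).

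Cell cycle genes were detected in unfractured periosteum, more of them in pools 2 and 3 than in pool 1. Of 18 on the array 8 were detected in pool 1, 15 in pool 2 and 15 in pool 3, and 16 of the 18 were highest in pool 3. List means were 6.94, 8.64 and 9.64 in pools 1, 2 and 3, against 9.51 to 9.98 in the day 2 pools and 8.62 to 8.83 in the day 6 pools. Cdk1, the kinase that starts mitosis, had 5.71, 9.13 and 11.24, and Top2a, the topoisomerase of dividing cells, had 6.79, 9.35 and 10.87. Mcm4, a subunit of the replication helicase, was high in all 3 pools, with 12.17, 12.50 and 12.83 (rank 566). The lowest detected level was also highest in pool 1, at 6.66, and 3 of the 18 genes were detected in no pool. Which cells of pools 2 and 3 carried them was not tested. The inhibitors of division Cdkn1a (p21) and Cdkn1c (p57) had ranks of 484 and 727, and Cdkn2a was not detected.

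Signalling genes gave a mixed baseline. Of 17 Notch pathway genes 11 were detected in all 3 pools (64.7%): after Notch3 came Hes1, a target of Notch, with 11.83, 11.42 and 11.34 (rank 1170), and Nrarp, a feedback inhibitor, with 12.33, 12.37 and 8.99 (rank 1432). Of 17 BMP and TGF-beta ligands 10 were detected in all 3 pools; Gdf10 had rank 318 and Bmp4 rank 1431, whereas Bmp2, Bmp7, Gdf5 and Gdf6 were detected in none. Of the receptors, Tgfbr2, the TGF-beta type II receptor, had 13.21, 13.38 and 13.15 (rank 295). Of 21 Wnt ligands and receptors 8 were detected in all 3 pools (38.1%), close to the 40.7% of all genes, led by Wnt5a, a ligand of the noncanonical pathway, with 10.78, 10.63 and 11.60. The Wnt inhibitors Dkk1, Dkk2 and Frzb were not detected, while Dkk3 had rank 927 and Sfrp2 rank 1630. Of 9 hedgehog genes 4 were detected in all 3 pools; the ligands Shh and Ihh and the receptor Ptch1 were not detected, and Smo, the signal transducer, had rank 3536. Of the IGF pathway, Igfbp5, Igfbp4 and Igf2 had ranks of 53, 142 and 200.

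Hox genes, which record the position of a cell along the body axis, were detected about as often as other genes. Of 38 on the array 14 were detected in all 3 pools (36.8%, against 40.7% of all genes) and 15 in none (39.5%, against 37.4%), 12 of which were also detected in no fractured pool. Hoxc6 had 10.04, 9.51 and 10.04 in pools 1, 2 and 3, and Hoxc9 had 9.48, 9.40 and 9.51. Hoxa10 was detected on none of the 9 arrays. Tbx4 and Pitx1, the hindlimb transcription factors, were detected in no unfractured pool, nor was the forelimb factor Tbx5. Of 12 limb position genes on the array 7 were detected in no unfractured pool (58.3%, against 37.4% of all genes). Of these 7, 4 were also detected in no fractured pool and 0 in at least 3 fractured pools, which limits what their silence can say. Shox2, a limb factor, had 10.07, 9.72 and 9.12 (rank 3393).

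Over the whole array 6200 genes (37.4%) were detected in no unfractured pool by any probe. Of these, 4244 (68.5%) were also detected in no fractured pool, 562 were detected in at least 3 of the 6 fractured pools and 59 in all 6. Genes silent in unfractured pools and detected in all 6 fractured pools were thus a small share of the absent genes. Detection with a stricter p under 0.01 gave 5796 genes in all 3 pools and 7820 in none. Without pool 3, 7027 genes were detected in both other pools and 7383 in neither, and the smooth muscle and chondrocyte lists kept counts of 16 and 5 genes detected in all pools used.

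To ask where the unfractured pools differed from the rest of the series, their mean was compared with the mean of the day 2 and day 6 groups (limma moderated test over 10073 genes, Benjamini-Hochberg adjusted). Of these, 36 genes (0.357%) were higher and 56 (0.556%) lower in unfractured pools at an adjusted p under 0.05, and the median log2 difference of all genes was -0.07. No unfractured pool overlapped a fractured pool for 398 genes that were higher (3.95%) and 451 that were lower (4.48%). The counts rest on few pools: without unfractured pool 1 they were 0 higher and 4 lower, without pool 2 they were 0 and 9, and without pool 3 they were 866 and 940. Leaving out the 3 leukocyte-rich arrays gave 1538 higher (15.3%) and 1866 lower (18.5%). That setting removed an array of each group, picked from these same data, so its counts are descriptive. Day 2 and day 6 pools of the same number deviated together (correlations of 0.512 to 0.634), and with them paired as a random block, a fit chosen after seeing the data, 2 genes were higher and 16 lower. Without day 2 replicate 3 they were 0 and 11, and without day 6 replicate 2 they were 0 and 13; at an unadjusted p under 0.05 each of the 4 settings with 0 higher had 491 to 750 higher genes. Scaling arrays by their medians in place of quantiles shifted the median of all genes to -0.79 and gave 8 higher and 322 lower, so directions are relative to the quantile scaling. Against the day 2 pools alone no gene passed (707 higher and 918 lower at an unadjusted p under 0.05), and against the day 6 pools alone 63 were higher and 221 lower.

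Higher in unfractured pools were genes that include endothelial, secreted and metabolic ones. Vwf had 13.35, 12.55 and 11.81 in the unfractured pools, against 9.18, 9.98 and 8.76 in the day 2 pools and 10.19, 8.28 and 8.92 in the day 6 pools, a log2 difference of 3.35 ± 0.49 (SE, adjusted p = 0.0295). Ackr1, a chemokine-binding receptor of venular endothelium, had 12.25, 12.81 and 11.34 in the unfractured pools and 8.77 to 10.05 in the fractured pools (2.61 ± 0.40, adjusted p = 0.032). Of 20 endothelial genes tested, Vwf alone passed, against 0.357% of all genes higher, with a list median of 1.74. At an unadjusted p under 0.05 in the limma test, 15 were higher and none lower, against 9.42% and 12% of all genes. With median scaling the list median was 0.78, where that of all genes was -0.79. All 3 unfractured pools lay above all 6 fractured pools for 5 of the 20, against 3.95% of all genes. Without the leukocyte-rich arrays 17 of the 20 passed as higher, against 15.3% of all genes. The arrays left out had the lowest endothelial mean of the unfractured pools and the highest of each fractured group. Leaving them out thus widens the difference by itself.

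Outside the endothelium, Cytl1, a secreted cytokine-like protein, had 11.46, 10.10 and 8.72 in the unfractured pools and 5.85 to 8.04 in the fractured pools, a log2 difference of 3.37 ± 0.56 (adjusted p = 0.0376). Inmt, a methyltransferase, had 10.80, 10.54 and 10.80 in the unfractured pools and 6.19 to 8.74 in the fractured pools (3.03 ± 0.46, adjusted p = 0.034). Both sets of pools were apart, and Inmt was the steadier of them in the unfractured pools. Bmp4, a bone morphogenetic ligand, was higher by 2.13 ± 0.36 (adjusted p = 0.0421), Hoxb7 by 2.32 ± 0.29 (adjusted p = 0.0144) and Pparg by 1.36 ± 0.24 (adjusted p = 0.046). Of 22 Hox genes tested, Hoxb7 and Hoxa13 passed, against 0.357% of all genes higher, with a list median of 0.47 (-0.11 with median scaling). The calls of Vwf, Ackr1, Cytl1, Inmt, Bmp4, Hoxb7 and Pparg were each lost without unfractured pool 1, without pool 2 and against the day 2 pools alone. With sex in the model Vwf, Cytl1, Inmt, Bmp4 and Pparg were lost, with median scaling Ackr1, Inmt, Bmp4 and Pparg, with the replicate number as a block Ackr1, Cytl1 and Pparg, and against the day 6 pools alone Cytl1. With the fractured pools paired by number, Hoxb7 kept its call and the other 6 lost theirs. Over 21 alternative settings Cytl1 passed in 7, the fewest of these genes, and Hoxb7 in 16, the most.

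Acta2 itself did not pass. It had 16.07, 16.09 and 15.57 in the unfractured pools, against 14.11, 15.75 and 15.93 in the day 2 pools and 14.09, 15.27 and 15.22 in the day 6 pools (0.85 ± 0.45, adjusted p = 0.298). None of the 17 smooth muscle genes and none of the 15 pericyte genes passed in the limma test, with list medians of 1.30 and 0.98. At an unadjusted p under 0.05, 6 smooth muscle and 4 pericyte genes were higher and none lower, against 9.42% of all genes higher and 12% lower. With median scaling the list medians were 0.69 and 0.0021, where the median of all genes was -0.79. Without the leukocyte-rich arrays 12 smooth muscle and 7 pericyte genes passed as higher in unfractured pools, against 15.3% of all genes. For both lists the arrays left out had the lowest mean of each group, so these counts depend on that choice.

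Lower in unfractured pools were cartilage genes, of which 6 of the 17 chondrocyte genes tested passed (median -2.35), against 0.556% of all genes. All unfractured pools lay below all fractured pools for 2 of the 17, against 4.48% of all genes. Acan was at least 53.1-fold lower in unfractured than in fractured pools (adjusted p = 0.000428), where the bound sets the fractured mean against the lowest level detected in the unfractured pools. Hapln1 was at least 9.72-fold lower (adjusted p = 9.14e-05). The fractured means average groups that differ: Hapln1 had 5.86, 5.95 and 5.26 in the day 2 pools and 13.03, 13.21 and 13.23 in the day 6 pools. Col9a2, a fibril-associated cartilage collagen, also passed as lower (adjusted p = 0.00011), but only day 6 lay apart. Its mean was 5.13 in the unfractured, 5.14 in the day 2 and 14.01 in the day 6 pools. Capn6, a calpain-related protein, was detected in all 9 pools, with 8.83, 9.36 and 9.37 in the unfractured pools and 9.86 to 14.28 in the fractured pools (-2.96 ± 0.32, adjusted p = 0.00963). Frzb, a secreted Wnt inhibitor (adjusted p = 0.00942), and Gdf5, a joint-forming growth factor (adjusted p = 0.0269), also passed as lower. Frzb had means of 5.17 in the unfractured, 5.16 in the day 2 and 10.015 in the day 6 pools. Gdf5 had 5.015, 5.06 and 7.80, so both were lower than in the day 6 pools only. The calls of Capn6, Frzb and Gdf5 were lost without unfractured pool 1, without pool 2 and against the day 2 pools alone. That of Gdf5 was also lost with the fractured pools paired, the deposited value table, median scaling and sex in the model. Over 21 alternative settings Gdf5 passed in 9, and Capn6 and Frzb in 18 each. Acan, Hapln1 and Col9a2 lost theirs against the day 2 pools alone.

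**Figure D4:**
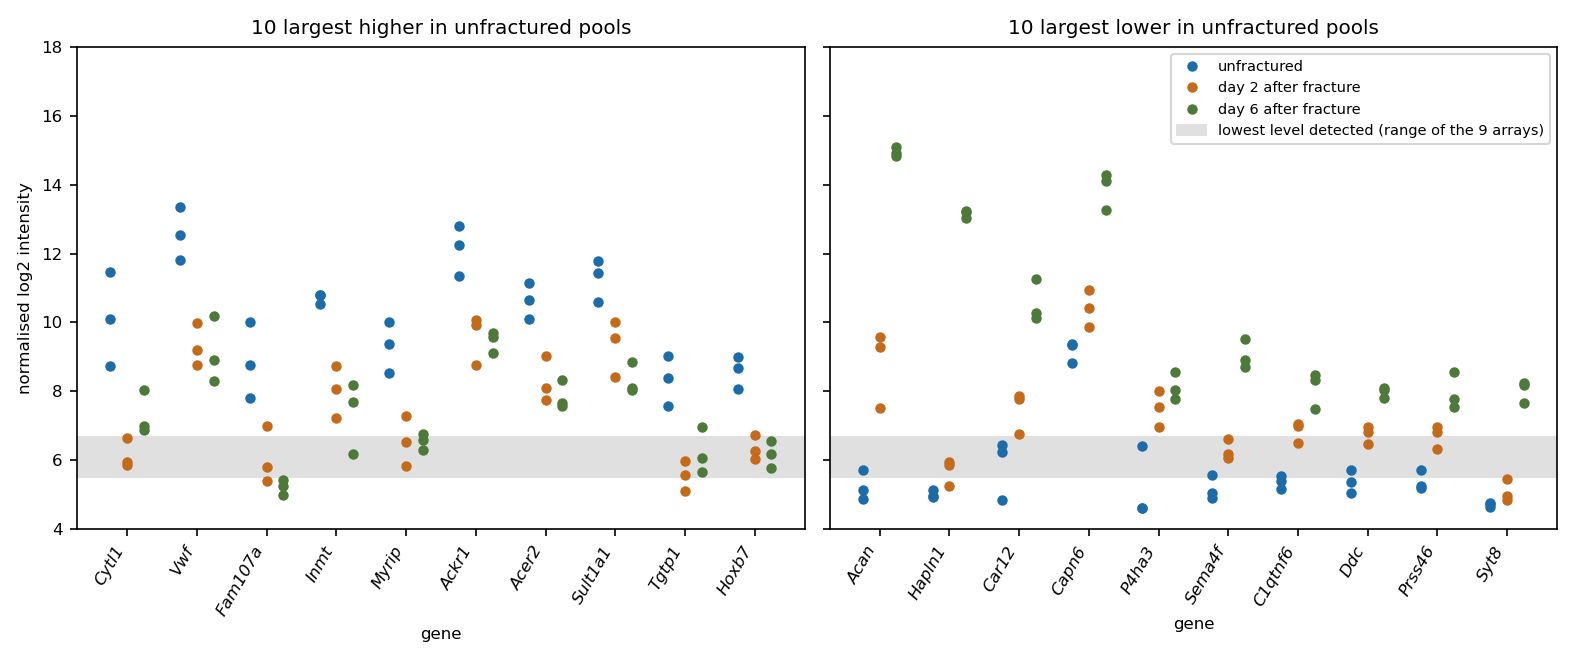
Normalised log2 intensity (vertical axis) of the 10 largest higher and 10 largest lower genes among those that passed without overlap, each point 1 pool: unfractured (blue), day 2 (orange) and day 6 (green), from left to right within each gene. The grey band spans the lowest level detected on the 9 arrays. Of the lower genes, Acan, Hapln1, Car12, P4ha3, Sema4f, C1qtnf6, Ddc, Prss46 and Syt8 lie within or below it in the unfractured pools. Capn6 lies above it.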

How the data were processed

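Total RNA of the sorted cells was amplified into biotin-marked copies, per the labels' protocols, and read on Illumina arrays; the submitters' processing notes name GenomeStudio without a version. The authors deposited non-normalised bead intensity per probe on a linear scale, each with its detection p-value, and a table of processed intensity that ranks the probes of each array as the raw values do. Here limma 3.58.1 in R 4.3.3 (neqc) removed background by normexp, estimating negative controls through the detection values, added an offset of 16, quantile-normalised the 9 arrays and gave log2 values. Of 25697 probes 23978 had 1 gene symbol in the platform annotation and 1719 (6.69%) had none; 518 of these were detected in all unfractured pools and are not named. For each gene the probe of highest mean among those detected on at least 3 arrays was used. The comparison fitted 1 mean per group to 9 arrays (lmFit, eBayes, 6 residual degrees of freedom) over 10073 genes. The code was run on simulated data with independent noise, which leaves out deviations shared between pools and cannot speak for them. Replicate numbers were not taken as pairs: deviations of same-numbered pools correlated at -0.31 to 0.40 between unfractured and day 2 and at -0.28 to 0.26 between unfractured and day 6. Those of day 2 and day 6 correlated at 0.512 to 0.634, so a fit with the 6 fractured pools paired by number as a random block (duplicateCorrelation) was added after seeing the data. Nothing says that pools of a group were sorted separately beyond their labels, so p-values measure the spread between these pools. Genes named are the 25 highest, the next 25 that are not ribosomal, up to 4 highest and 4 undetected of each list, the 10 widest ranges over pools, the 10 largest differences each way and a panel; other names were added after their values were seen. Members, lists and rules were chosen with earlier results of these data known. The precision is limited by 3 arrays per group.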

Additional observations from a re-analysis of the deposited data

How the results depend on the processing

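The ranking changed little with the processing: of the 50 highest genes 50 were shared with quantile normalisation without background correction, 49 with the deposited value table, 49 with median scaling and 45 to 47 when a pool was left out, and Acta2 ranked between 1 and 9. Taking every probe on its own gave 10085 probes detected in no unfractured pool. Without 1 unfractured pool, genes detected in all ranged from 6939 to 7788 and in none from 6611 to 7383. The difference in probes detected ranged from -2544 to -1219 without any single array, and was -2654 without the leukocyte-rich arrays (exact p = 0.0667, the smallest possible there). The genes higher and lower in unfractured pools depended strongly on the arrays used. Without any single array the counts ranged from 0 to 866 higher and from 4 to 940 lower: 0 and 4 without unfractured pool 1, 0 and 9 without pool 2, 866 and 940 without pool 3, 19 and 51 without day 2 replicate 1, 6 and 17 without day 2 replicate 2, 0 and 11 without day 2 replicate 3, 62 and 81 without day 6 replicate 1, 0 and 13 without day 6 replicate 2, and 1 and 9 without day 6 replicate 3. Median scaling gave 8 and 322, sex in the model 7 and 24, removal of the leukocyte-rich arrays 1538 and 1866, day 2 alone 0 and 0, and day 6 alone 63 and 221; the cause was not tested. With the replicate number as a block, 38 were higher and 53 lower, of which 17 and 40 were shared with the fit without pairing, and Ackr1, Cytl1 and Pparg no longer passed. With only the fractured pools paired by number (consensus correlation 0.554), 2 were higher and 16 lower. Frzb reversed against day 2 alone, with 0.0156 (adjusted p = 0.983). Acan, Hapln1 and Col9a2 passed under every alternative run except the comparison with day 2 alone. Detection limits every statement of absence.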

Other observations

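Among the genes that ranged most between the unfractured pools, most were highest in pool 3 and are known from macrophages: Ms4a6d had 5.82, 7.39 and 12.94 in pools 1, 2 and 3, Wfdc17 had 4.92, 4.87 and 11.31, and Rgs1, which is made by leukocytes, had 5.17, 6.21 and 11.96. Pf4, a platelet chemokine that macrophages can also make, had 4.91, 8.10 and 12.57, whereas of 6 megakaryocyte genes on the array none was detected in all 3 pools. Anln, a scaffold of dividing cells, had 4.73, 10.64 and 11.70. Tinagl1, a basement membrane protein, went the other way, with 11.57, 11.33 and 5.26. Stfa1, a protease inhibitor of neutrophils, was lowest in pool 2, with 9.64, 5.36 and 11.92. Car3, a carbonic anhydrase of muscle and fat, had 4.80, 7.68 and 11.51.

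Clock genes, hormone receptors and imprinted genes were detected in part, where 40.7% of all genes were detected in all 3 pools. Of 15 clock genes 9 (60%) were detected in all 3 pools, led by Bhlhe40, a transcriptional repressor, with 14.09, 13.58 and 13.39 (rank 201), and Dbp, a clock output factor, with 13.20, 12.73 and 10.77 (rank 700). Of 17 hormone receptors 8 (47.1%, near the share of all genes) were detected in all 3 pools, among them Ghr, the growth hormone receptor, with 11.04, 11.22 and 11.13, Esr1, estrogen receptor alpha, with 9.37, 9.62 and 9.48 in the male, female and male pools, and Npy1r, a neuropeptide Y receptor, with 11.76, 11.34 and 8.37. Of 16 imprinted genes 10 (62.5%) were detected in all 3 pools, with Ndn, necdin, at rank 436. Rexo1, an exonuclease gene, had rank 11, with 15.62, 15.64 and 15.87 in the unfractured pools, against 15.69, 15.07 and 12.97 in the day 2 pools and 14.73, 13.15 and 12.69 in the day 6 pools (1.66 ± 0.63, adjusted p = 0.185).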
